A study of Homo sapiens with 6 samples.

Results

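Keratins are the intermediate filament proteins of epithelial cells, and 10 keratin genes of simple and stratified epithelium were followed in HepG2 cells given ellagic acid. They were chosen by symbol from the 52408 genes of the count table, as KRT7, KRT8, KRT80, KRT81 and KRT86 of type II and KRT17, KRT18, KRT19, KRT20 and KRT23 of type I. HepG2 is an established line from a human liver tumour and still makes many hepatocyte products. Cells of the EA group spent 24 h in medium with ellagic acid (EA, a polyphenol of fruits and nuts) at 50 µM, added from a stock in dimethyl sulfoxide (DMSO), and cells of the DMSO group spent as long with an equal volume of the solvent. Each group had 3 libraries, all from the same line, with 15738089 to 19202292 reads assigned to genes in EA and 22987425 to 25973621 in DMSO. Whether the libraries of a group are separate cultures is not stated, so each p-value reflects the spread between these samples alone, and that spread may be technical. The first principal component, with 94.3% of the variance, separated the groups, and EA replicate 3 stood apart from the other EA libraries on the second. Without that library the same 5 members described below were called, with KRT20 added. KRT20 had 0 reads in EA, so it passed the filter through the DMSO libraries and could only count as lower. The study's question was which pathways the compound acts on in liver cancer cells.

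A keratin filament is built from pairs in which a type I chain binds a type II chain, and a chain left without a partner is degraded. Hepatocytes make KRT8 and KRT18 as their only abundant pair, whereas bile duct cells add KRT7 and KRT19. Other pairs mark the basal layer of stratified epithelium, its upper layers, intestinal lining or the hair shaft.

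The keratin make-up of the cells shifted with EA. KRT8 and KRT18, the hepatocyte pair, fell to 0.570-fold and 0.463-fold of their DMSO level, and KRT23, a type I keratin, fell 15.7-fold. KRT19, the tail-less type I keratin of ducts and other simple epithelia, rose 3.21-fold and had the highest level per transcript length of the 10 in EA, and KRT80, a type II keratin of differentiating epithelia, rose 1.65-fold. The other 5 members were below the filter on low counts. KRT7, KRT17 and KRT81 had a few reads in EA and almost none in DMSO, KRT20 was read in DMSO alone, and KRT86 was listed at 0 in all 6 libraries. All folds are relative to the other genes of the same library, since libraries were scaled to each other.

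All 5 members that could be tested were called, 2 higher and 3 lower with EA. The background was high: 12680 of 15648 tested genes, or 81.0%, passed the threshold of 0.05 after Benjamini-Hochberg adjustment (quasi-likelihood test of edgeR), 40.5% higher and 40.5% lower. The count of called keratins does not set them apart. The median log2 fold change over all tested genes was 0.004. In each of the 5 tested members the libraries of the groups did not overlap, which also held for 82.9% of all tested genes.

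**Figure D1:**
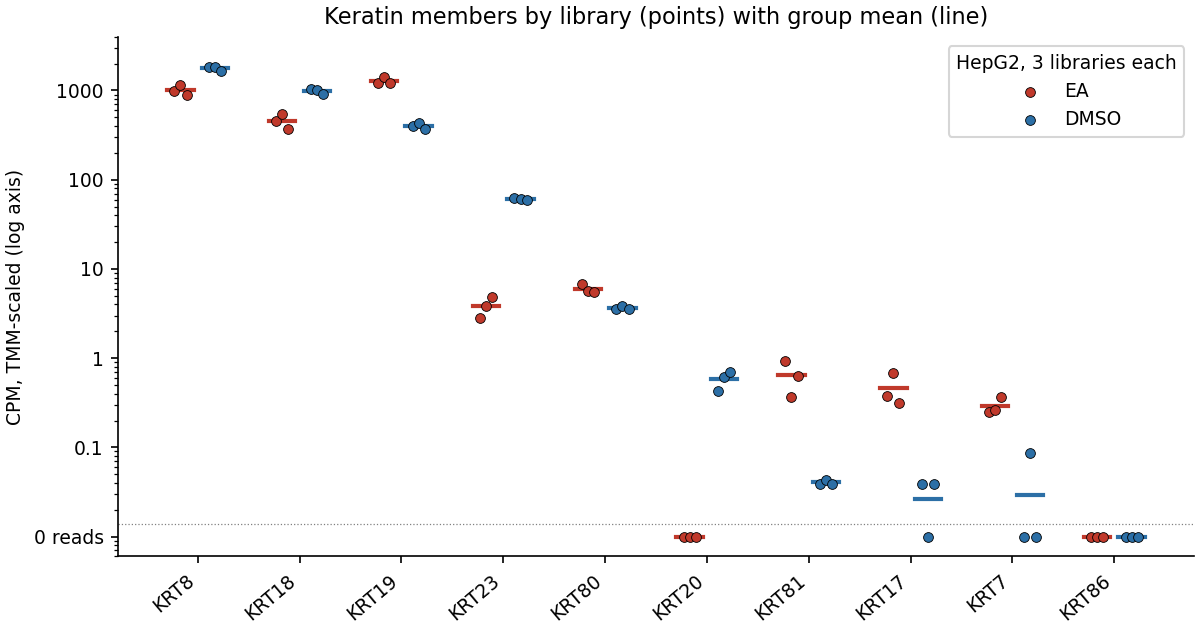
Read level (CPM scaled by TMM, log axis with 0 reads drawn at the foot) of the 10 keratins in each of 3 EA and 3 DMSO libraries, with a line at the group mean. KRT8 and KRT18 lie lower in EA, KRT19 lies higher, and KRT23 shows the widest gap among the 5 tested members (3.83 CPM in EA against 60.8 CPM in DMSO).

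Promoter sequence from RefSeq (build GRCh38.p14) was matched for 2 of the 10 members, KRT8 and KRT20, and for KRT37 and KRT38, type I hair keratins that rose together as described further on. The windows run from 250 bases before to 50 bases after the gene start. The 250 bases before the start are printed here 5′ to 3′ on the gene's strand, with matches to any of 4 searched motifs in capitals. Both strands were searched for the AP-1 motif TGANTCA, for the TEAD motif GGAATG, for the TATA box TATAAA and for the SP/KLF motif GGGCGG, and no match overlapped another. KRT8 (chr12:52926470-52926719, minus strand) and KRT20 (chr17:40885243-40885492, minus strand) are shown as members that were lower in EA:
KRT8: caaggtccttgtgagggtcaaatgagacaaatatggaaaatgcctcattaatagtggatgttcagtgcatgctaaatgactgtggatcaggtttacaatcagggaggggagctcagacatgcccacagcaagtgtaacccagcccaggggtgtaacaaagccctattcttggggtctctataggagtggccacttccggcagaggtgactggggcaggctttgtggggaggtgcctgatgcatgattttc
KRT20: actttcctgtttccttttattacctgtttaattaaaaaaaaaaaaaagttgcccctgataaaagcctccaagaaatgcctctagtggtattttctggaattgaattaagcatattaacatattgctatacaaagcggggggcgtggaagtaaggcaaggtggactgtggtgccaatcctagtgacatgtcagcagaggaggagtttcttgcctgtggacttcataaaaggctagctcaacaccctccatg
KRT37 (chr17:41424586-41424835, minus strand) and KRT38 (chr17:41440984-41441233, minus strand) are shown because both rose:
KRT37: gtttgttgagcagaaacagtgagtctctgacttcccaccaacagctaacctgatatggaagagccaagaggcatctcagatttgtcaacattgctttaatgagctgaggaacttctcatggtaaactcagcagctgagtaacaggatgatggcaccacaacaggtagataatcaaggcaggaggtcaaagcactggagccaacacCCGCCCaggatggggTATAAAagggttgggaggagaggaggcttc
KRT38: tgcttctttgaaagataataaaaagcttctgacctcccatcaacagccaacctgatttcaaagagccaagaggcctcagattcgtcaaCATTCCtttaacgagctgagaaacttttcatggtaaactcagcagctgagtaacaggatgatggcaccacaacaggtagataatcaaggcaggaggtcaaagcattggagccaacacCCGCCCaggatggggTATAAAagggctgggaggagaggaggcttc
No motif matched within the printed KRT8 and KRT20 letters, and the full KRT8 window had 1 GGAATG match, in the bases after the start. KRT37 and KRT38 each had TATAAA at position -30 and the reverse strand of GGGCGG at position -45 relative to the gene start, and KRT38 also had a GGAATG match at position -162. The printed stretches of KRT37 and KRT38 were identical at 223 of 252 alignment columns (88.5%), against 45.2% for KRT8 and KRT20. Among 35116 promoter windows of the same length, 7.7% held the AP-1 motif, 14.0% the TEAD motif, 11.5% the TATA box and 45.0% the SP/KLF motif. A match describes letters and is not a binding site.

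KRT8 (ENSG00000170421, chromosome 12), the type II chain that simple epithelia make first, had 15762, 21731 and 17043 reads in the EA libraries and 46618, 42666 and 41959 in the DMSO libraries. Scaled to library size these were 980.9, 1151 and 900.7 CPM in EA, against 1815, 1856 and 1650 CPM in DMSO. Every EA library was lower than every DMSO library. The log2 fold change was -0.81 (SE 0.09, adjusted p = 6.88e-07 by edgeR's quasi-likelihood test). In bulk RNA a smaller share of cells expressing a gene and less RNA of it per cell cannot be told apart.

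KRT18 (ENSG00000111057, chromosome 12), the type I partner of KRT8, stood at 451.6, 542.9 and 374.2 CPM in EA and at 1043, 1004 and 908.0 CPM in DMSO. The groups lay well apart, and EA replicate 3 was the lowest of the 6. The log2 fold change was -1.11 (SE 0.12, adjusted p = 1.35e-05). KRT18 is a neighbour of KRT8 on the opposite strand, and in GENCODE 29 their exons share 525 bases, which is 16.3% of the exon bases of KRT18 and 7.6% of those of KRT8. Because the strand setting of the counting is not stated, reads from that stretch cannot be assigned to either gene with certainty.

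Within the pair, KRT8 kept a larger part of its level than KRT18. The log2 ratio of KRT8 to KRT18 reads within a library was 1.12, 1.09 and 1.27 in EA and 0.80, 0.89 and 0.86 in DMSO. It averaged 1.16 ± 0.10 in EA and 0.85 ± 0.04 in DMSO (SD, n = 3 each), a difference of 0.31, and was higher in 3 of 3 EA libraries. A two-sided exact permutation test gave p = 0.10, the smallest that 3 against 3 libraries allow, and Benjamini-Hochberg adjustment over the 3 planned ratios and shares left it at 0.10. With reads of their pseudogenes added to each gene the difference was 0.31 as well.

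KRT19 (ENSG00000171345, chromosome 17), which has no tail domain and marks bile ducts and hepatic progenitor cells, had 19571, 26556 and 23074 reads in EA and 10280, 9887 and 9390 in DMSO. Its level was 1218, 1407 and 1219 CPM in EA, against 400.2, 430.1 and 369.2 CPM in DMSO. Even the raw reads were higher in each EA library, although those libraries held fewer reads in all. The log2 fold change was 1.68 (SE 0.08, adjusted p = 3.29e-11). No stretch of 150 bases in its transcript was found in a transcript of another gene, and its 5 annotated pseudogenes had 0 reads in every library.

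The share of reads taken by each chain differed between the groups. KRT8 and KRT18 together took 53.8%, 54.4% and 50.9% of the reads of the 10 keratins in the EA libraries, against 86.0%, 85.3% and 85.5% in the DMSO libraries. The mean share was 53.1 ± 1.9% in EA and 85.6 ± 0.35% in DMSO (SD, n = 3 each; exact permutation p = 0.10, the smallest possible). KRT19 alone took 46.5 ± 1.9% in EA and 12.4 ± 0.39% in DMSO. The log2 ratio of KRT19 to KRT18 reads changed sign, at 1.503 ± 0.177 in EA and -1.30 ± 0.08 in DMSO; this ratio was chosen after its values were seen and was not tested. The 10 keratins together held 0.272%, 0.311% and 0.247% of all reads in EA and 0.329%, 0.336% and 0.298% in DMSO, so here the groups overlapped.

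**Figure D2:**
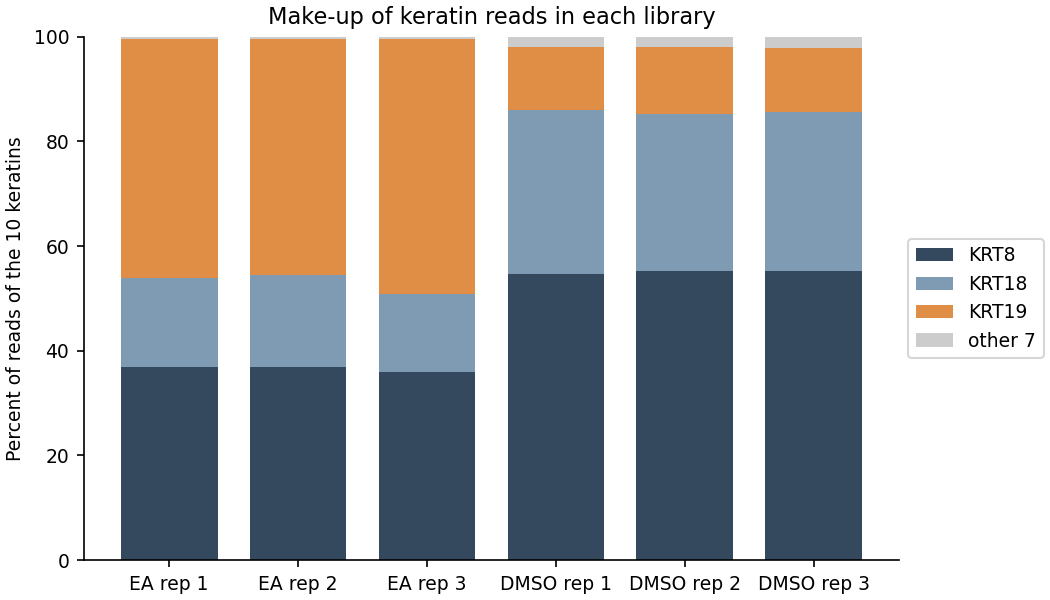
Percent of the reads of the 10 keratins taken by KRT8, KRT18, KRT19 and the other 7 members in each library, EA libraries on the left and DMSO libraries on the right. KRT19 takes between 45.2% and 48.7% in EA and between 12.0% and 12.8% in DMSO.

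The balance of type II to type I chains was lower in EA. Reads were divided by the length of the longest protein-coding transcript in GENCODE 29 and summed over the 5 members of each type. The log2 ratio of type II to type I was -1.50, -1.49 and -1.57 in EA and -0.33, -0.29 and -0.29 in DMSO. Its means were -1.52 ± 0.04 in EA and -0.30 ± 0.02 in DMSO (SD, n = 3 each), a difference of -1.22 with an exact permutation p of 0.10, the smallest possible. In both groups the sum over type I members, divided by length, was above that over type II members. In DMSO this order depends on the division. With undivided reads the type II sum was above the type I sum in each DMSO library. In DMSO replicate 1, KRT8 had 46618 reads, against 26781 for KRT18, 10280 for KRT19 and 1617 for KRT23. These are RNA levels and say nothing of how the chains pair as proteins.

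Levels per length put the keratins in another order in the 2 groups. In EA, KRT19 came first at 922 ± 78 CPM per kb of transcript, then KRT8 at 415 ± 53 and KRT18 at 269 ± 50 (SD, n = 3). In DMSO, KRT8 came first at 728 ± 45 CPM per kb, then KRT18 at 581 ± 41 and KRT19 at 288 ± 22. The ranges of these 3 genes did not overlap within either group. KRT23 came next in both groups, at 1.93 ± 0.51 CPM per kb in EA and 30.6 ± 0.97 in DMSO. Its values in EA, 1.41 to 2.42 CPM per kb, overlapped those of KRT80, at 1.43 to 1.73, so the order of KRT23 and KRT80 in EA is not settled. In EA, KRT81, KRT17 and KRT7 followed at 0.335, 0.279 and 0.168 CPM per kb, each overlapping the next.

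KRT23 (ENSG00000108244, chromosome 17), a type I keratin found in some gut and liver tumours, had the largest log2 fold change of the tested members in either direction. It had 45, 73 and 91 reads in EA and 1617, 1384 and 1506 in DMSO, which is 2.80, 3.87 and 4.81 CPM in EA against 62.9, 60.2 and 59.2 CPM in DMSO. The DMSO libraries were close to each other, and the EA libraries spread over a wider relative range. The log2 fold change was -3.97 (SE 0.13, adjusted p = 8.02e-13). An antisense gene overlaps 186 of its exon bases (6.4%) in GENCODE 29. Over the 6 libraries the protein-coding genes with the most similar log2 CPM profile were PSMC2, FDFT1 and SNX17, with Pearson's r of 0.9999, 0.9998 and 0.9998 as a description. In all, 1459 protein-coding genes had an r above 0.99 with KRT23.

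KRT80 (ENSG00000167767, chromosome 12) had 108, 108 and 105 reads in EA and 91, 88 and 90 in DMSO. This is 6.72, 5.72 and 5.55 CPM in EA and 3.54, 3.83 and 3.54 CPM in DMSO. The groups did not overlap, and the log2 fold change was 0.72 (SE 0.15, adjusted p = 0.000544). Its level stayed far below that of the simple keratins in both groups.

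The remaining members were at the edge of detection. A count of 3 reads, the limit that 0 reads allow, corresponds to 0.156 to 0.191 CPM in an EA library and 0.116 to 0.131 CPM in a DMSO library. KRT20 (ENSG00000171431, chromosome 17), a keratin of intestinal epithelium and urothelium, had 0 reads in each EA library and 11, 14 and 18 in the DMSO libraries. Against a floor of 3 reads over the EA group it was at least 10.4-fold lower in EA.

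KRT7 (ENSG00000135480, chromosome 12), the type II keratin of bile ducts and other simple ducts, had 4, 5 and 7 reads in EA and 0, 2 and 0 in DMSO. The ratio of the sums, scaled for library size, was 11.0 with a 95% counting interval of 2.59 to 98.7. Its level in EA, 0.295 ± 0.066 CPM, was far below that of KRT19 in the same libraries. KRT7-AS, an antisense gene, shares 282 exon bases with KRT7 in GENCODE 29, so these few reads cannot be assigned to a strand.

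KRT17 (ENSG00000128422, chromosome 17), a type I keratin of hair follicles and wounded skin, had 6, 13 and 6 reads in EA and 1, 0 and 1 in DMSO, a ratio of 17.2 (95% counting interval 4.29 to 150). No 150-base stretch of its transcript was shared with another gene. Its 8 annotated pseudogenes had 2, 2 and 1 reads in EA and 0, 4 and 1 in DMSO, more than KRT17 itself in DMSO. The ratio leaves those reads out and would be smaller with them. KRT81 (ENSG00000205426, chromosome 12), a type II hair keratin, had 15, 7 and 12 reads in EA and 1 in each DMSO library, a ratio of 15.6 (4.90 to 79.3). In KRT7, KRT17 and KRT81 every EA library was above every DMSO library.

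KRT86 (ENSG00000170442, chromosome 12), a type II hair keratin that shares sequence with KRT81, was listed at 0 reads in all 6 libraries. In GENCODE 29, 22.1% of the 150-base windows of its longest protein-coding transcript also occur in KRT81, and 25.6% of those of KRT81 occur in KRT86. Reads from those windows cannot be assigned to either copy, so the pair is uncertain, and the sum of both equals the KRT81 reads alone.

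The other keratin genes of the table gave context. Of 45 further protein-coding keratins, 24 had any read and 7 could be tested. Of the 7, 6 were higher and 1 lower in EA, beside 40.5% of all tested genes higher and 40.5% lower. Some of the 7, such as KRT79 with reads in EA alone and KRT14, KRT37 and KRT38 with few in DMSO, passed the filter through the EA libraries, so these counts do not describe the 45. Among those that rose, 5 lie on chromosome 17 with most type I genes and 1, KRT79, on chromosome 12 with the type II genes. KRT15, a type I keratin of basal cells, had 127, 126 and 81.3 CPM in EA against 2.803, 3.001 and 2.477 CPM in DMSO (log2 fold change 5.33, SE 0.23, adjusted p = 1.53e-07 by edgeR).

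KRT14, the type I chain of the basal layer, had 112, 140 and 177 reads in EA and 1, 1 and 0 in DMSO, a ratio of 295 (95% counting interval 81.2 to 2445). Its usual partner KRT5 was listed at 0 reads in every library. The hair keratins KRT37 and KRT38 had 29.6 ± 6.9 and 29.02 ± 6.08 CPM in EA and 0.167 ± 0.12 and 0.120 ± 0.034 CPM in DMSO, with log2 fold changes of 7.46 (SE 0.32) and 7.83 (SE 0.27). No 150-base window of KRT38 occurs in another gene, while 25.9% of those of KRT37 occur in an antisense gene at the same place. KRT10, a type I chain of upper epidermal layers that was read at a moderate level, fell to 15.0 ± 1.3 CPM in EA, against 21.8 ± 1.8 CPM in DMSO (log2 fold change -0.54, SE 0.10, adjusted p = 0.000164). KRT12, at under 1 CPM, was also higher in EA (0.90, SE 0.33, adjusted p = 0.0207). With 12, 9 and 12 reads in DMSO it passed the filter through the EA libraries, and with no filter edgeR gave it an adjusted p of 0.113. KRT79 had 14, 15 and 16 reads in EA and 0 in DMSO, at least 20.6-fold higher against 3 reads over the group.

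**Figure D3:**
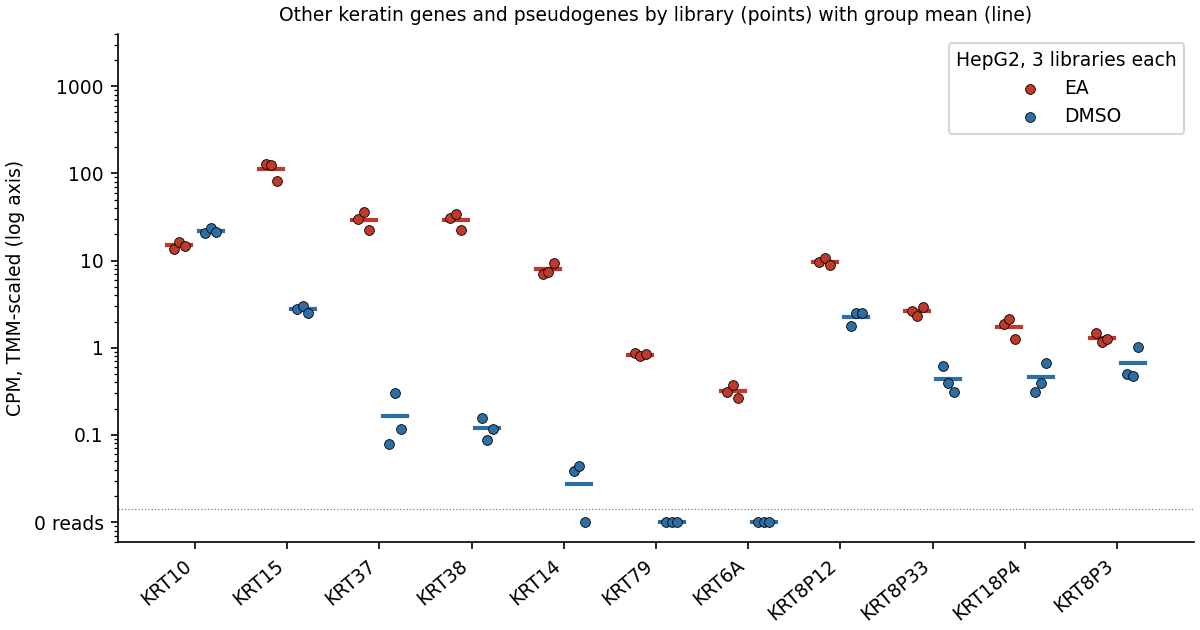
Read level (CPM scaled by TMM, log axis with 0 reads drawn at the foot) of other keratin genes and of keratin pseudogenes in 3 EA and 3 DMSO libraries, with a line at the group mean. KRT15, KRT37, KRT38 and KRT14 lie more than 10-fold apart between the groups, while KRT10 lies slightly lower in EA.

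Genes of the structures that hold keratin filaments were read beside the members. Of 8 tested desmosome genes, out of 12, 5 rose, 1 fell and 2 were not called (median log2 fold change 0.61). DSP, the plakin that anchors keratins at desmosomes, rose to 2761 ± 118 CPM in EA, against 1504 ± 27 CPM in DMSO, and JUP, PERP and DSC3 had log2 fold changes of 1.10, 1.51 and 1.76. The plakophilin PKP2 fell (-0.39). Of 9 plakins and linkers 7 rose and 2 fell (median 0.51). PLEC and DST, which tie filaments to hemidesmosomes and the cytoskeleton, had log2 fold changes of 1.72 and 1.68, and the integrin chain ITGA6 one of 1.25. EVPL, a plakin of the cornified envelope, fell (-0.95), as did TCHP (-0.42). Neither list was tested as a set, and 40.5% of all tested genes were higher.

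Of 7 tested genes of other intermediate filaments, 2 rose, 4 fell and 1 was not called (median log2 fold change -1.05). The counts of the lists in this paragraph stand beside 40.5% of all tested genes higher and 40.5% lower. NES fell to 48.4 ± 1.9 CPM in EA, against 211 ± 6.2 CPM in DMSO, and the nuclear lamins LMNB1 and LMNB2 and the linker SYNM had log2 fold changes of -3.35, -1.05 and -2.02, while BFSP1 and INA rose (1.42 and 1.46). VIM, the filament of mesenchymal cells, had 3 reads over the EA libraries and 0 in DMSO. Genes of Mallory-Denk bodies, the KRT8 and KRT18 aggregates of injured hepatocytes, and of keratin turnover were split: 4 of the 10 rose, 4 fell and 2 missed the threshold, at a median of -0.40. SQSTM1, the aggregate protein p62, rose (0.85), whereas UBB, HDAC6 and VCP fell (-1.50, -1.35 and -1.04). CRYAB, which also rose, had 15, 5 and 7 reads in DMSO and passed the filter through the EA libraries. Among 6 tested epithelial transcription factors of 11, 4 rose and 2 fell (median 2.35). Of those that rose, GRHL3 had 0, 3 and 1 reads in DMSO. It passed the filter through the EA libraries, so it could only count as higher. KLF4, a regulator of epidermal differentiation, had 89.4 ± 6.2 CPM in EA and 2.24 ± 0.39 CPM in DMSO, KLF5, ELF3 and GRHL3 had log2 fold changes of 3.05, 1.65 and 4.44, and GRHL1 and SOX9 fell (-0.45 and -0.20). TP63, the basal cell regulator, had 1 read in each group.

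**Figure D4:**
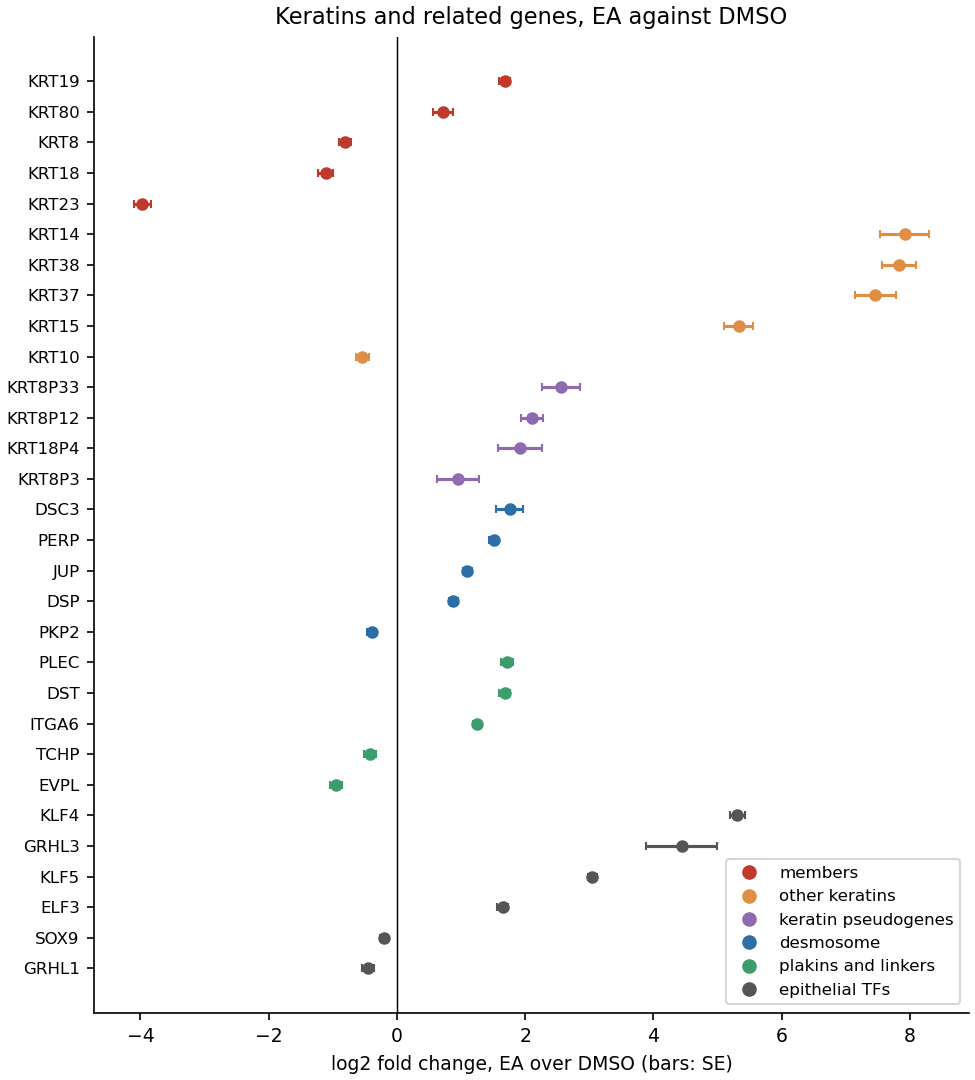
Fitted log2 fold change, EA over DMSO, with SE bars for the 5 tested members and for the named other keratins, pseudogenes, desmosome genes, plakins and linkers, and epithelial transcription factors. Among the members KRT19 and KRT80 lie above 0 and KRT8, KRT18 and KRT23 below it; the fitted value of KRT14 rests on 2 DMSO reads.

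Markers were read beside the keratins, and their counts stand against the 81.0% of all tested genes that were called, 40.5% higher and 40.5% lower. All 10 hepatocyte markers were detected in both groups, and 9 were lower and 1 higher in EA (median log2 fold change -1.48). Their summed level was 13180 to 13690 CPM in EA and 49170 to 52050 CPM in DMSO. Most of that difference came from APOB, with means of 3080 CPM in EA and 29450 CPM in DMSO. FGB, CPS1, AFP and ALB fell, with log2 fold changes of -4.28, -1.89, -1.77 and -1.19. APOA1 rose (0.35), although its libraries overlapped between the groups. The smallest falls were those of TF and HNF4A, with log2 fold changes of -0.52 and -0.56. Of 8 biliary markers, which include KRT7 and KRT19, 5 could be tested, and the 1 of these that rose was KRT19 itself. EPCAM, PROM1, SPP1 and SOX9 fell, with log2 fold changes of -1.64, -1.78, -1.59 and -0.20. Below the filter, KRT7 was higher in EA as given above, and CFTR, a chloride channel of duct cells, had 1, 6 and 5 reads in EA and 0 in each DMSO library, at least 5.50-fold higher in EA against 3 reads over the DMSO group. The summed level of all 8 was 1839 to 2044 CPM in EA and 2034 to 2066 CPM in DMSO, and that of the 6 without KRT7 and KRT19 was 621 to 824 CPM in EA and 1636 to 1665 CPM in DMSO.

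Of 12 stratified squamous markers, which include KRT14, 4 could be tested and 3 rose: KRT14, SFN (log2 fold change 3.17) and S100A2 (2.30). KRT14 passed the filter through the EA libraries, as given above. The summed level of the 12 was 371 to 416 CPM in EA and 44.1 to 50.3 CPM in DMSO, most of it from SFN. IVL, KRT5 and SPRR1A were at 0. Of 8 stromal markers 3 were tested, 1 higher and 2 lower (median -1.58). Their summed level was 56.8 to 62.3 CPM in EA and 47.2 to 48.4 CPM in DMSO, and COL1A2 and DCN were at 0. Most of the sum came from ACTA2, the gene that was higher, with means of 53.7 CPM in EA and 30.6 CPM in DMSO. PDGFRB and COL1A1 were lower, PDGFRB with a log2 fold change of -1.58. COL1A1, with 1, 0 and 1 reads in EA, passed the filter through the DMSO libraries. Of 8 immune and endothelial markers 4 were tested, 1 higher, 2 lower and 1 not called (median -1.01). Their summed level was 4.24 to 5.76 CPM in EA and 5.43 to 5.65 CPM in DMSO, with CD3E, CD68 and PTPRC at 0. The higher gene was VWF (log2 fold change 1.53). The lower genes, CD14 (1, 2 and 9 reads in EA) and CDH5 (6, 5 and 7), also passed the filter through the DMSO libraries. The part of these genes in the keratin results was not tested.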

How the data were processed

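RNA of 6 HepG2 samples was sequenced as paired reads of 150 bp. Per the labels' protocols, 1 µg of total RNA with an integrity number above 7 was made into NEBNext Ultra libraries. The tools named per the submitters' processing notes are HTSeq 0.6.1, HISAT, cutadapt 1.9.1 and bcl2fastq 2.17.1.14, with hg19 as build; for the annotation release, strand setting and filters, the sources used here give nothing. The authors deposited raw read counts per gene for 52408 genes, matched to samples by column name.

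Genes were filtered with filterByExpr, scaled by TMM and tested with edgeR 4.0.16 (R 4.3.3) by the robust quasi-likelihood F test with Benjamini-Hochberg adjustment over all 15648 tested genes at 0.05. Each log2 fold change divided by the square root of F gave its SE. The test was checked on simulated counts in which few genes changed, so that check does not cover data in which most genes are called, as here. Alternatives used DESeq2 1.42.0, limma 3.58.1, other scalings and filters, a replicate block, thinning and each library left out. Within-library ratios were compared by exact permutation over samples (scipy 1.17.1). Count ratios carry 95% exact counting intervals; a floor is 3 reads, and both cover counting error only. Length, exon overlap and shared 150-base windows came from GENCODE 29 on GRCh38, so its coordinates are not used; promoter letters came from RefSeq on GRCh38.p14.

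The 10 keratins and the 12 related lists were chosen with earlier results of these data known. Named were all members, called other keratins with a mean of at least 1 CPM, the 4 pseudogenes with most reads, and in each list up to 4 called genes with the smallest p plus up to 2 going against the majority. Genes named outside this rule were chosen after their values were seen. Some genes of the lists, EPPK1, NEFL and CD24 among them, are not analysed here.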

Additional observations from a re-analysis of the deposited data

How the results depend on the processing

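KRT8, KRT18, KRT19, KRT23 and KRT80 were called with the same direction under each of the alternatives run, among them DESeq2, limma-voom, other scalings and every library left out. Their log2 fold changes ranged from -0.94 to -0.76, -1.26 to -1.01, 1.55 to 1.72, -4.20 to -3.82 and 0.59 to 0.76. With no filter 9 members were called, since KRT7, KRT17, KRT20 and KRT81 then entered the test; that fit gave KRT8 an adjusted p of 1.63e-37 in edgeR, so its p-values are not on the footing of the others. Leaving out 1 library let KRT20, KRT81 or both pass the filter, and 6 to 7 members were then called. KRT20, with 0 reads in EA, could pass only through the DMSO libraries and so could only count as lower. KRT81, with 1 read in each DMSO library, could pass only through the EA libraries and so could only count as higher. Over all genes the count ranged from 12302 to 13613. The difference in the type II to type I log2 ratio was -1.075 with reads not divided by length. It was -1.27 with exon union length, an alternative chosen after seeing the data. Only the lengths used differ, but with undivided reads type II was above type I in DMSO. With a library left out, 5 to 7 plakins and linkers and 5 to 6 other keratins were higher. With a minimum fold of 1.2, 4 plakins and linkers were higher. The 1 higher hepatocyte marker, APOA1, lost its call there, at an adjusted p of 0.01 in edgeR, and without EA replicate 1 or 2 or DMSO replicate 2 or 3. With no filter 3 biliary markers and 9 keratin pseudogenes were higher, and 1 pseudogene was lower. KRT81 and KRT86 summed stayed below the filter and gave no value.

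Libraries that share a number did not deviate together (r -0.0839, 0.0273 and -0.0154), so the number is no pairing known to hold. With a replicate block 5 members and 12537 genes were called, 67 genes of the lists instead of 68, and the differences in the KRT8 to KRT18 ratio, the type ratio and the shared percent were 0.31, -1.22 and -32.5. EA replicate 3 lay apart on the second principal component. KRT7, KRT17, KRT20 and KRT81 rest on few reads, and their values carry wide counting error.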

Other observations

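Pseudogenes of KRT8 and KRT18 carried few reads. The 4 keratin pseudogenes with the most reads were also the 4 of 130 that could be tested. Each was higher in EA by edgeR's quasi-likelihood test, beside 40.5% of all tested genes, whereas KRT8 and KRT18 were lower. KRT8P33, with 16, 9 and 8 reads in DMSO, and KRT18P4, with 8, 9 and 17, passed the filter through the EA libraries. The count therefore does not describe the 130. KRT8P12 had 155, 201 and 168 reads in EA and 46, 57 and 63 in DMSO (log2 fold change 2.11, SE 0.17, adjusted p = 1.13e-08). KRT8P33 and KRT18P4 had log2 fold changes of 2.56 (SE 0.29) and 1.92 (SE 0.34), and KRT8P3 one of 0.95 (SE 0.33, adjusted p = 0.0155). Some pseudogenes below the filter, which were not tested, had fewer reads in EA. KRT18P17 had 0 reads in EA and 3, 1 and 3 in DMSO, and KRT8P45 had 0, 2 and 1 in EA and 3, 9 and 3 in DMSO. Others below it had more reads in EA, such as KRT8P14 (6, 4 and 5, against 0 in DMSO) and KRT18P55 (4, 5 and 8, against 0, 2 and 0). Summed over all 50 KRT8 pseudogenes, reads came to 1.62%, 1.44% and 1.61% of those of KRT8 in EA and to 0.204%, 0.251% and 0.272% in DMSO. For the 67 KRT18 pseudogenes the values were 1.144%, 1.005% and 0.8757% in EA and 0.168%, 0.182% and 0.169% in DMSO. No 150-base window of the KRT8 transcript occurs exactly in a transcript of another gene in GENCODE 29. Of those of KRT18, 10.0% occur in a KRT8 transcript. Both strands were searched, and the exons of KRT18 and KRT8 share 525 bases on opposite strands. KRT8P12 shares 142 exon bases with KPNA4 on the opposite strand.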
